A study of Mus musculus with 32 samples.

Results

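The genes described here encode the proteins of the mitochondrial ribosome that carry an Mrpl or Mrps symbol. They were found by name alone, as every gene symbol on the array that starts with Mrpl or Mrps followed by a digit. The rule itself used no measured value, although it was set with earlier results of these data known. Of 24082 genes with a symbol on the array, 76 were members, 47 with a large-subunit (Mrpl) and 29 with a small-subunit (Mrps) name. Each gene was represented by its brightest probe, and all 76 passed the filter on dim probes, which left 16037 genes in the series. Every member was well above background on each of the 32 arrays.

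The mitochondrial ribosome translates the few messages of the mitochondrial genome, which encode membrane subunits of the respiratory chain and of ATP synthase. Its RNAs come from mitochondrial DNA, but all of its proteins are encoded in the nucleus, made in the cytosol and imported. Some of these proteins descend from those of the bacterial ribosome and others are specific to mitochondria. The names do not always give the position: Mrps18a and Mrps30 sit in the large subunit, and the product of Mrps36 is now known as part of the oxoglutarate dehydrogenase complex. The counts below follow the names.

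Bone marrow-derived macrophages (BMDMs), cells grown from mouse bone marrow in the presence of M-CSF, came from WT mice (C57BL/6 in the labels, C57BL6/J in the study's methods) or from Ifnar1-/- mice (Ifnar1_KO in the plots), which are without one chain of the type I interferon receptor. BMDMs of each genotype were left untreated or received for 6 h zVAD, LPS or IFNβ, either of the last with zVAD, or either with zVAD and Nec-1, which makes 16 groups of 2 arrays. LPS is a bacterial ligand of TLR4, IFNβ a type I interferon, zVAD an inhibitor of caspases and Nec-1 an inhibitor of the kinase RIPK1. LPS or IFNβ with zVAD is the stimulus for necroptosis, a lytic cell death. In the study, Nec-1 inhibited the necroptosis that LPS or IFNβ induced with another caspase inhibitor. Doses in the labels are 100 ng/mL for LPS and 1000 U/mL for IFNβ, while the study's text has other doses for both. No source used here says that the 2 arrays of a group came from separate cultures or animals, so p-values measure only the spread between these arrays. In bulk samples of this kind, fewer cells of a type and less RNA per cell cannot be told apart.

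Between 55.6% and 78.3% of probes per WT array, and 45.4% and 62.1% per Ifnar1-/- array, exceeded background clearly, and no spot was saturated. The macrophage markers Csf1r, Emr1, Cd68 and Lyz2 had log2 intensities of 16.4 to 18.5 on all 32 arrays, and Itgam, Mertk and Fcgr1 were above background on all 32 too, whereas Pdgfra (fibroblast) was above background on 0 arrays. The erythroid markers Klf1 and Epor were above background on 5 and all 32 arrays. Cd3e, Elane and Col1a2, markers of T cells, neutrophils and fibroblasts, were above background on all 32 arrays, Cd3d on 4 arrays, the B cell markers Cd79a and Ms4a1 on 32 and 23, and the dendritic cell markers Flt3 and Zbtb46 on 30 and 31, and the part of such cells in the results was not tested. Of the 3 probes for Ifnar1, a pair separated the genotypes without overlap (7.88 to 10.2 in WT against 5.82 to 7.35 in Ifnar1-/-, and 9.94 to 11.9 against 7.29 to 8.73), and the ranges of the third overlapped (9.02 to 14.8 and 11.2 to 12.4). The 2 Ifnar1-/- LPS+zVAD+Nec-1 arrays differed most from each other, with a correlation of 0.947 and a median absolute difference of 0.512 over all genes, against 0.207 to 0.384 in the other groups.

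The array reads a message through a probe of 60 bases. The probes of 3 members are shown because they carry results below, with their positions on the mm9 build, and those of Mrps5 and Mrps35 are listed over 551 and 9121 bases of genome, longer than the probes themselves. Whether they lie in coding sequence or untranslated region was not analysed here. They are written in lower case, 5′ to 3′.
Mrps5, mm9 chr2:127426599-127427149, + strand: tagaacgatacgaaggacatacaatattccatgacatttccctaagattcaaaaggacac
Mrps35, mm9 chr6:147009999-147019119, + strand: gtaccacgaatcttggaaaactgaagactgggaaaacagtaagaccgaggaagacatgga
Mrpl51, mm9 chr6:125143362-125143421, + strand: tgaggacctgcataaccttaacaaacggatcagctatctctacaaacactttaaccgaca

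RefSeq promoter windows on GRCm38.p6, from 250 bases before to 50 bases after a start, could be matched to 67 of the 76 members. Shown are those of Mrpl51, which followed the other members most closely, Mrpl52 and Mrpl39, which left them in LPS and in IFNβ, Mrps18a, the steadiest member, and Mrps6, which moved against them. Capitals mark matches, on either strand, to the ETS-family motif CCGGAAG, the NRF1 motif GCGCATGCG, the YY1 motif AAGATGGC or the CCAAT box.
Mrpl51, GRCm38.p6 chr6:125191950-125192249, + strand: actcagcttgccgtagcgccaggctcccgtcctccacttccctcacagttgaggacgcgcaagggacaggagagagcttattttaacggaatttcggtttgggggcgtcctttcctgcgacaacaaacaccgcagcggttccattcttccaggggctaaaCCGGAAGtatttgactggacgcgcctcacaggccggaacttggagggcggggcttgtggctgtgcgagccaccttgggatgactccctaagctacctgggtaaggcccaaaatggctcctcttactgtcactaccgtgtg
Mrpl52, GRCm38.p6 chr14:54426659-54426958, + strand: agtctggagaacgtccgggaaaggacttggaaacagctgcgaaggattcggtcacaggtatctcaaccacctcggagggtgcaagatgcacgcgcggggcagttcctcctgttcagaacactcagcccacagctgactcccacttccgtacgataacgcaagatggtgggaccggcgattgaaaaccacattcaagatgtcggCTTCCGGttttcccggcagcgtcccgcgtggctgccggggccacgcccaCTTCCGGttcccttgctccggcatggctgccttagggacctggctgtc
Mrpl39, GRCm38.p6 chr16:84735195-84735494, - strand: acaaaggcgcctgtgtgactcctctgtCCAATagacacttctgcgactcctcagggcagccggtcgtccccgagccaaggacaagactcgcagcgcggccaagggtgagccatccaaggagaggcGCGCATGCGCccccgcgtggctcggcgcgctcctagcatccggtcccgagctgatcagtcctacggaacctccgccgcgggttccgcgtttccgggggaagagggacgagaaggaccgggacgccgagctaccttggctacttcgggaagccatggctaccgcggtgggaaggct
Mrps18a, GRCm38.p6 chr17:46110754-46111053, + strand: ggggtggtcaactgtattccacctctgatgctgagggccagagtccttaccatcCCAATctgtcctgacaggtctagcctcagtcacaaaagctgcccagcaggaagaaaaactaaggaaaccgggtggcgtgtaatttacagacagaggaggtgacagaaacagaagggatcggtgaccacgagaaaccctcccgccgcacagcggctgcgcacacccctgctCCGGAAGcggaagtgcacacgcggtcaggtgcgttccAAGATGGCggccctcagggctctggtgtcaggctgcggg
Mrps6, GRCm38.p6 chr16:92058086-92058385, + strand: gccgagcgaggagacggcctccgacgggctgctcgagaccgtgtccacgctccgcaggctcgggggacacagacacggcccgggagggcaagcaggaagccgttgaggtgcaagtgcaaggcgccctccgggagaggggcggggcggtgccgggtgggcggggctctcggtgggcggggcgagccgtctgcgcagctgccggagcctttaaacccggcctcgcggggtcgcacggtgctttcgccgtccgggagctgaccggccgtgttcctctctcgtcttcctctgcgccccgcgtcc

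Some motifs, which the choice by name did not use, were more frequent in the members' promoters than in those of all genes. The ETS motif, which GABP and related factors bind, was in 24 of 67 members (35.8%) against 9.93% of all genes with a window and 12.9% of protein-coding genes. The YY1 motif was in 12 (17.9%, against 3.19% and 3.57%) and the NRF1 motif, named for nuclear respiratory factor 1, in 7 (10.4%, against 1.95% and 2.61%). The E-box CACGTG (5 members, 7.46%, against 8.09% of all genes) and the CCAAT box (27 members, 40.3%, against 41.1%) were about as frequent as elsewhere, and TATAAA was in 5 (7.46%, against 15.7%). The median GC content of the windows was 58.3% against 52.7% for all genes (56.3% for protein-coding genes), and the median observed-over-expected CpG was 0.820 against 0.384 (0.567 for protein-coding genes). Another protein-coding gene started within 1000 bases on the opposite strand, facing away, for 23 of the 67 (34.3%, against 8.48% of 17492 protein-coding genes with a start), among them the pair Mrpl46 and Mrps11, Mrpl43 with the mitochondrial helicase gene Twnk, and Mrps12 with Sars2, which encodes the mitochondrial seryl-tRNA synthetase. These shares are descriptions, and a match is not a binding site. The motif shares were not compared at matched GC or CpG content.

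Across the 16 groups the members were lowest in WT LPS+zVAD. That group had the lowest mean for 52 of the 76 genes, 30 of the large and 22 of the small subunit. Each value was set against the gene's mean over the 32 arrays, and the median of these log2 deviations over the large subunit was -0.66 on each of the 2 WT LPS+zVAD arrays, against -0.22 ± 0.05 (SD, n = 2) in the next lowest group, WT IFNβ+zVAD. For the small subunit it was -0.69 and -0.68 on these arrays, against -0.31 ± 0.13 (SD, n = 2) in the next lowest group, WT LPS. The pair of WT LPS+zVAD arrays therefore stood apart from the other 15 groups by more than the spread within any of them. Untreated WT (0.10 ± 0.00295 large, 0.15 ± 0.00906 small) and untreated Ifnar1-/- BMDMs (0.11 ± 0.06 and 0.25 ± 0.16, SD, n = 2) lay above 0, 9th and 8th from the highest of the 16 groups in the large and 9th and 5th in the small subunit. The untreated genotypes did not differ beyond that spread in either subunit. In the small subunit the untreated Ifnar1-/- arrays (0.14 and 0.37) lay on either side of the untreated WT arrays (0.16 and 0.15).

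**Figure D1:**
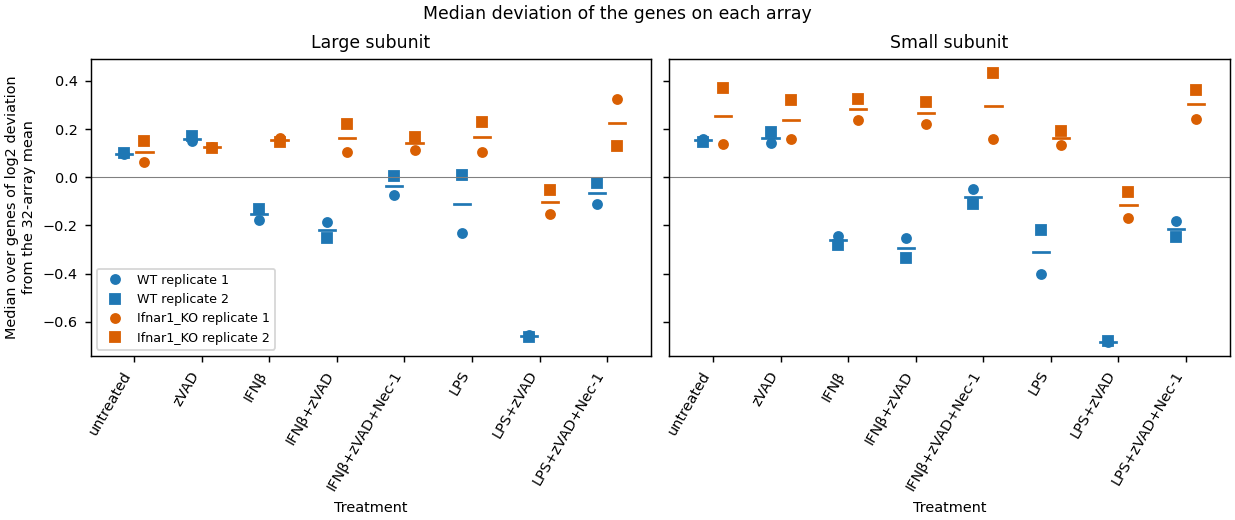
Median log2 deviation (y axis) of the large-subunit (left, 47 genes) and small-subunit genes (right, 29 genes) from their 32-array means, for each treatment (x axis), with 1 point per array, coloured by genotype and shaped by replicate. Both WT LPS+zVAD arrays lie lowest, at -0.66 and -0.66 for the large subunit, and the Ifnar1_KO LPS+zVAD arrays lie at -0.15 and -0.05.

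The median residual SD between replicates was 0.18 for the large and 0.16 for the small subunit against 0.34 for all genes tested. The members were also brighter, with median log2 intensities of 12.95 and 12.88 against 9.82 for all genes, and the spread was not compared at matched intensity. As a description, the correlation of a member's 16 group means with the mean of the other 75 members had a median of 0.72 in the large and 0.82 in the small subunit. It was highest for Mrpl51, a mitochondria-specific protein, at 0.98, and it was below 0 for 10 large-subunit and 4 small-subunit genes. The most opposed was Mrpl46 (-0.77), followed by Mrps6 (-0.64), Mrpl1 (-0.64) and Mrpl32 (-0.55). All these points share the same arrays and scaling.

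**Figure D2:**
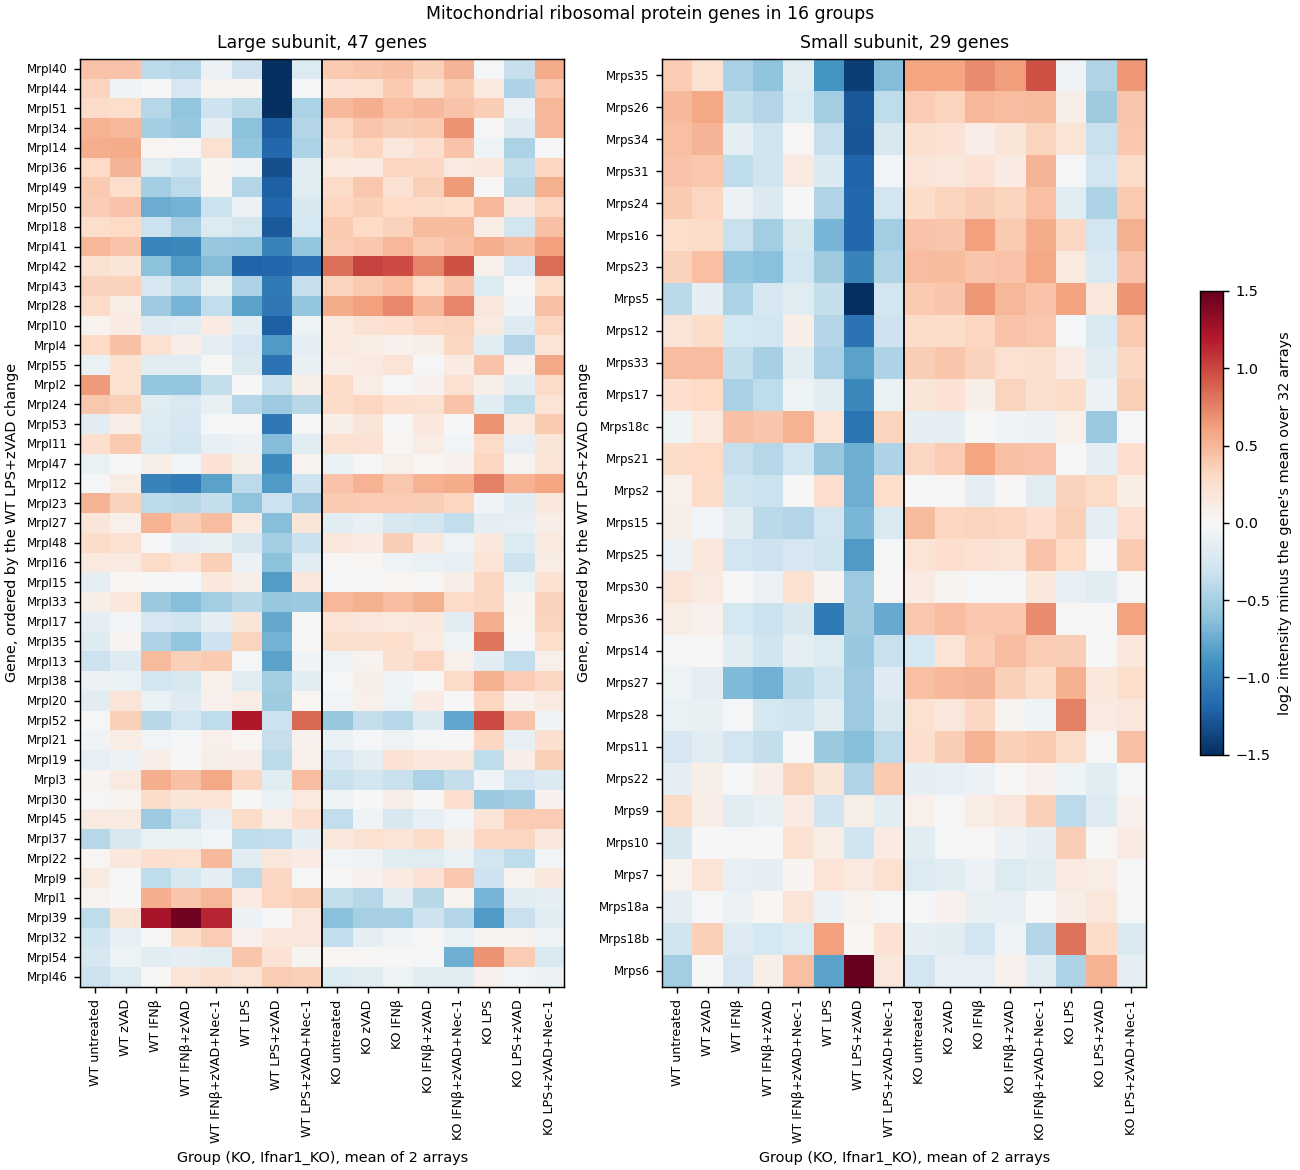
Each cell is the mean of 2 arrays of 1 gene (y axis, ordered by its WT LPS+zVAD change) in 1 of 16 groups (x axis, WT left of the line and Ifnar1_KO right), as log2 intensity minus the gene's mean over 32 arrays, with colours ending at -1.5 and 1.5. The WT LPS+zVAD column is the lowest for 52 of the 76 genes, and Mrps6 goes against it (a change of 2.09 from untreated WT), while Mrpl39 is highest in the 3 WT groups with IFNβ and Mrpl52 in WT LPS.

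The first comparison asks how the members changed in WT BMDMs given the necroptosis stimulus LPS+zVAD for 6 h, relative to untreated WT BMDMs. Most members fell: 30 large-subunit and 18 small-subunit genes were lower and 3 and 1 were higher at an adjusted p under 0.05 by limma, adjusted over all 16037 genes. Thus 63.2% of the members were lower, where 32.7% of all genes were lower and 18.3% higher. Among the 12398 genes that were, like every member, above background on all 32 arrays, 37.5% were lower and 19.4% higher. For the other comparisons below, only the share of all genes is given. All genes had a lower median intensity and a larger residual SD than the members, so those shares are not matched for either. The median log2 change was -0.82 in the large and -0.78 in the small subunit (1.77-fold and 1.72-fold lower), against -0.15 for all genes and -0.27 for the genes above background on all arrays. On both slides 35 of 47 and 24 of 29 members were lower, and the medians of all members within the slides were -0.79 and -0.86. Counts on both slides or at an unadjusted p, here and below, have no share of all genes beside them.

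Mrpl44, a large-subunit protein with a ribonuclease III fold, had log2 intensities of 12.06 and 12.09 in untreated WT and 10.19 and 10.00 in LPS+zVAD. The groups were far apart, and the change was -1.98 (SE 0.14, adjusted p = 3.53e-09). Mrpl34, a short protein with a bacterial homologue, went from 13.13 and 13.06 to 11.53 and 11.15, a change of -1.75 (SE 0.17, adjusted p = 1.11e-07). In the small subunit the mitochondria-specific Mrps26 went from 14.07 and 14.06 to 12.39 and 12.23 (-1.76, SE 0.17, adjusted p = 1.17e-07). Mrps16, with a bacterial homologue, went from 13.74 and 13.69 to 12.38 and 12.17 (-1.44, SE 0.15, adjusted p = 1.84e-07). None of these 4 genes overlapped between the groups.

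Some members are given here by their place in the ribosome, chosen after their values had been seen and as a description. The stalk that recruits translation factors was lower in its 3 measured proteins, Mrpl10 (-1.27), Mrpl11 (-0.90) and Mrpl12 (-0.84), the last of which also binds the mitochondrial RNA polymerase. Near the peptidyl transferase centre, Mrpl2 (-0.97) and Mrpl27 (-0.82) were lower, and Mrpl3 (-0.22, adjusted p = 0.396) was not called. Around the polypeptide exit, Mrpl23 (-0.83) and Mrpl24 (-0.96) were lower, while Mrpl22 (0.14, adjusted p = 0.562) and the membrane anchor Mrpl45 (-0.02, adjusted p = 0.934) were not called. Mrps12, which lies at the decoding centre, was lower by -1.31. Of the 45 members listed with a bacterial homologue 28 were lower and 2 higher (median -0.78), and of the 31 others 20 were lower and 2 higher (median -0.91), so both classes held members of either direction. Of the relatives of bacterial S18, only Mrps18c was counted in the first class, so Mrps18b was among the others.

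The members that rose in WT LPS+zVAD were Mrps6, Mrpl46, Mrpl32 and Mrpl54. Mrps6, homologous to bacterial S6, had 12.70 and 12.02 in untreated WT and 14.44 and 14.46 in LPS+zVAD, a change of 2.09 (SE 0.20, adjusted p = 1.35e-07). Its 2 arrays in this group were above the other 30. Mrpl46, a mitochondria-specific protein of the large subunit, went from 11.25 and 11.28 to 11.69 and 12.24 (0.70, SE 0.17, adjusted p = 0.00173), although Mrps11, which shares its promoter region, changed by -0.38 (adjusted p = 0.0666). Mrpl32, which is matured by the m-AAA protease, changed by 0.45 (adjusted p = 0.0125) and Mrpl54 by 0.47 (adjusted p = 0.0482). The calls for Mrpl46, Mrpl32 and Mrpl54 were lost without WT LPS+zVAD replicate 2, those for Mrpl32 and Mrpl54 also without WT untreated replicate 2, and that for Mrpl54 without WT LPS+zVAD replicate 1, with another background correction (normexp), with no filter on dim probes and in the authors' normalized values.

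The gene span of Mrps6 overlaps that of Slc5a3, which encodes a sodium-coupled myo-inositol transporter, in the RefSeq gene table. On mm9 the Mrps6 probe lies at chr16:92112223-92112282 and the brighter Slc5a3 probe at chr16:92087281-92087340. The Slc5a3 probe had 7.65 and 7.45 in untreated WT and 9.25 and 10.28 in LPS+zVAD, a change of 2.21 (SE 0.72, adjusted p = 0.0149). In WT IFNβ+zVAD the second array was the higher for both genes, 13.26 against 12.68 for Mrps6 and 7.97 against 5.09 for Slc5a3. In Ifnar1-/- LPS+zVAD the Slc5a3 probe (8.49 and 8.65) was above untreated Ifnar1-/- (7.22 and 6.65), and Mrps6 was higher there by 0.80. In some other WT groups the genes differed in their change from untreated WT. The Slc5a3 probe was below untreated WT in WT LPS (5.04 and 6.23) and WT IFNβ (4.73 and 6.18), where Mrps6 changed by -0.28 and 0.27 and was not called. In WT LPS+zVAD+Nec-1 the Slc5a3 probe was also below untreated WT (5.77 and 6.89), while the mean of Mrps6 was 13.06 against 12.36 in untreated WT. Both genes were lower in that group than in WT LPS+zVAD. Whether the Mrps6 probe reads a transcript that runs through both genes was not tested.

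Of the 24 members without a call in this comparison, Mrps18a varied least over the 16 groups, with group means within 0.33 of each other and arrays between 13.04 and 13.60. Its change was 0.19 (adjusted p = 0.342). Mrpl21 had the smallest range in the large subunit, 0.65, and changed by -0.29 (adjusted p = 0.215). Its LPS+zVAD arrays, 12.68 and 12.77, lay below its untreated ones, 12.95 and 13.09.

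The normalization bears on the size of these shifts. When each array was shifted by its 75th percentile, without quantile normalization, the median change of all genes moved from -0.15 to 0.12 and that of the members from -0.79 to -0.55. Relative to all genes the members' median was -0.64 under the first and -0.67 under the second scaling. The members called were then 36 lower and 5 higher. The share of all genes called under this or another alternative setting is not given here or below. Such counts show only how the members' calls depend on the setting.

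**Figure D3:**
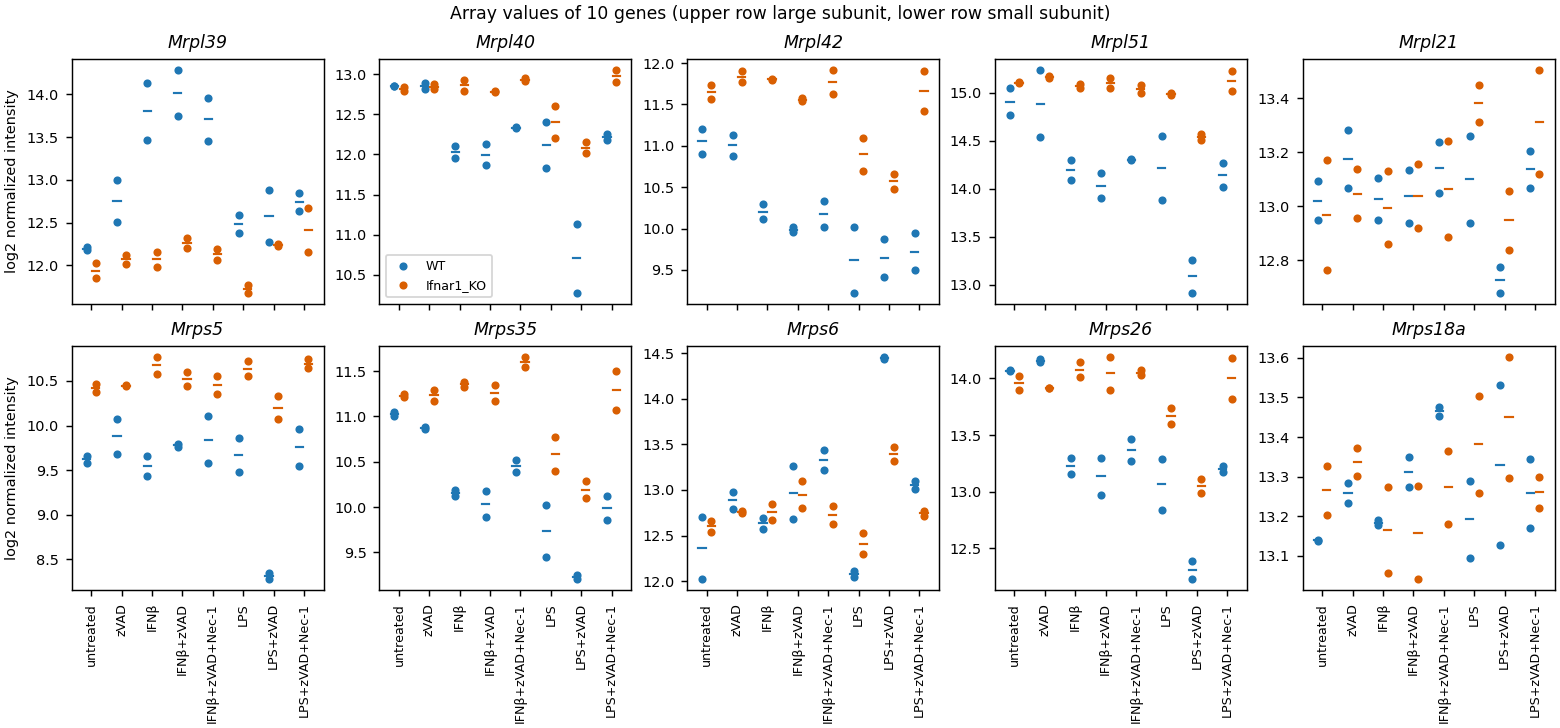
Log2 normalized intensity (y axis) of 10 genes by treatment (x axis) and genotype (colour), with a point for each of the 2 arrays of a group and a bar at their mean. The upper row shows Mrpl39, Mrpl40, Mrpl42, Mrpl51 and Mrpl21, and the lower row Mrps5, Mrps35, Mrps6, Mrps26 and Mrps18a, the genes of each subunit with the widest range of group means and, last in each row, the narrowest. Mrpl40 and Mrps5 drop in WT LPS+zVAD, where Mrps6 rises.

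The members with the widest range of group means showed several patterns. Mrpl40, a mitochondria-specific protein, had 12.85 and 12.86 in untreated WT, 12.89 and 12.82 in zVAD, 11.84 and 12.40 in LPS, 12.11 and 11.96 in IFNβ, 12.13 and 11.87 in IFNβ+zVAD and 11.14 and 10.28 in LPS+zVAD. With Nec-1 it had 12.18 and 12.25 in LPS+zVAD+Nec-1 and 12.33 and 12.34 in IFNβ+zVAD+Nec-1. Its LPS+zVAD arrays lay below all others, and its 16 Ifnar1-/- arrays lay between 12.02 and 13.05, with those of LPS and LPS+zVAD the lowest 4. Its second bright probe gave -2.12 in WT LPS+zVAD against -2.15 for the first.

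Mrpl51 had 15.05 and 14.76 in untreated WT, 13.88 and 14.55 in LPS, 14.30 and 14.09 in IFNβ and 13.26 and 12.92 in LPS+zVAD, while its Ifnar1-/- arrays lay between 14.51 and 15.22. Mrps26 showed the same order, with 12.84 and 13.29 in WT LPS and 13.30 and 13.16 in WT IFNβ between its untreated and LPS+zVAD values, and 12.98 and 13.11 in Ifnar1-/- LPS+zVAD. Both genes were thus lower in each WT group with LPS or IFNβ and lowest with LPS+zVAD.

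Mrpl42 and Mrps35, both mitochondria-specific, were low in each WT group that received LPS or IFNβ. Mrpl42 had 10.90 and 11.21 in untreated WT, 9.23 and 10.02 in LPS, 9.41 and 9.87 in LPS+zVAD and 9.49 and 9.94 in LPS+zVAD+Nec-1. Mrps35 had 11.05 and 11.004 in untreated WT, 9.45 and 10.02 in LPS, 9.20 and 9.25 in LPS+zVAD and 9.86 and 10.12 in LPS+zVAD+Nec-1. With IFNβ Mrpl42 had 10.11 and 10.30, with IFNβ+zVAD 10.01 and 9.95 and with IFNβ+zVAD+Nec-1 10.02 and 10.33. Mrps35 had 10.12 and 10.19, 10.18 and 9.89, and 10.39 and 10.52 in the same groups. Neither gene's LPS or IFNβ groups overlapped the untreated pair. Mrps5, whose bacterial homologue lines the messenger entry, had in contrast 9.58 and 9.66 in untreated WT, 9.47 and 9.86 in LPS and 8.35 and 8.28 in LPS+zVAD, so its LPS arrays lay on either side of the untreated pair and its LPS+zVAD arrays below both.

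LPS alone lowered fewer members. In WT BMDMs 17 large-subunit and 12 small-subunit genes were lower and 4 and 1 higher than in untreated WT, where 24.8% of all genes were lower and 16.3% higher. The median changes were -0.22 and -0.30 against -0.08 for all genes. Mrps35 (-1.29, SE 0.19, adjusted p = 2.83e-05) and Mrps36 (-1.18, SE 0.17, adjusted p = 2.70e-05) were among the lower genes, the latter with 13.41 and 13.32 in untreated WT and 12.17 and 12.20 in LPS. In the large subunit Mrpl34 (-1.13, adjusted p = 3.31e-05) and the exit-tunnel protein Mrpl23 (-1.12, adjusted p = 4.06e-05) fell most clearly. The higher genes were Mrps18b, a small-subunit relative of bacterial S18 (0.92, adjusted p = 0.000532), Mrpl52 (1.21, adjusted p = 0.00542), Mrpl54 (0.67, adjusted p = 0.00916), Mrpl46 (0.51, adjusted p = 0.0192) and Mrpl32 (0.37, adjusted p = 0.0470). Mrpl52 had 15.09 and 15.06 in untreated WT and 16.04 and 16.53 in LPS, and 15.81 and 16.09 in LPS+zVAD+Nec-1, against 15.54 at most on its other WT arrays.

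The direction under LPS alone depended on the scaling. With the 75th-percentile shift 9 members were lower and 11 higher, the members' median moved from -0.26 to 0.04 and that of all genes from -0.08 to 0.08. The 4 lower genes named above kept their calls in each setting tried. Without WT LPS replicate 1 the count of members called went from 34 to 19, and without replicate 2 of WT LPS Mrpl52 was not called. Mrpl54 was not called without replicate 2 of WT LPS or of untreated WT, nor Mrpl46 and Mrpl32 without any 1 of the 4 arrays.

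IFNβ lowered 18 large-subunit and 10 small-subunit members in WT BMDMs and raised 2 and 1, where 21.6% of all genes were lower and 13.7% higher. The median changes were -0.26 and -0.37 against -0.17 for all genes. Mrpl41, a mitochondria-specific large-subunit protein, had 13.41 and 13.04 in untreated WT and 11.83 and 11.64 in IFNβ (-1.49, SE 0.21, adjusted p = 2.60e-05). Mrpl34 fell by 1.02 on the log2 scale (adjusted p = 0.000110), and in the small subunit Mrps23 (-0.94, adjusted p = 0.000617) and Mrps33 (-0.82, adjusted p = 0.000625) were lower. These genes did not overlap between the groups.

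The genes that rose with IFNβ were Mrpl39, Mrpl13 and Mrps18c. Mrpl39, a large-subunit protein that resembles a part of threonyl-tRNA synthetases, had 12.18 and 12.21 in untreated WT and 13.47 and 14.13 in IFNβ, a change of 1.61 (SE 0.26, adjusted p = 8.51e-05). It had 13.75 and 14.28 in IFNβ+zVAD and 13.46 and 13.96 in IFNβ+zVAD+Nec-1, so all 6 WT arrays with IFNβ were above its other 26 arrays. A second, much dimmer Mrpl39 probe (mean log2 intensity 6.25 against 12.6) gave 1.36 for IFNβ, but -1.44 for LPS+zVAD, where the bright probe gave 0.38. Mrpl13, with a bacterial homologue, rose by 0.80 (adjusted p = 0.000847) from 13.51 and 13.40 to 14.32 and 14.18, and Mrps18c, another S18 relative, by 0.50 (adjusted p = 0.0222). The call for Mrps18c was lost without any 1 of the 4 arrays.

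With zVAD added to IFNβ, 17 large-subunit and 13 small-subunit members were lower and 4 and 2 higher than in untreated WT, where 23.1% of all genes were lower and 14.4% higher. Mrpl41 (-1.46, adjusted p = 3.06e-05), Mrpl34 (-1.08, adjusted p = 5.70e-05), Mrps33 (-0.96, adjusted p = 0.000136) and Mrps26 (-0.93, adjusted p = 0.000289) were lower. Mrpl39 (1.82, adjusted p = 2.09e-05), Mrpl13 (0.68, adjusted p = 0.00295), Mrps6 (0.61, adjusted p = 0.0249) and Mrps18c (0.48, adjusted p = 0.0263) were higher. The call for Mrps6 was lost without replicate 2 of either group and that for Mrps18c without any 1 of the 4 arrays. Both IFNβ comparisons share their untreated arrays with each other and with those of LPS. Against IFNβ alone, IFNβ+zVAD gave 0 calls among the members (0 at an unadjusted p under 0.05) and 0 among all 16037 genes (0%), with medians of -0.05 in the large and -0.06 in the small subunit.

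Under the 75th-percentile shift the members called were 9 lower and 6 higher for IFNβ and 11 lower and 7 higher for IFNβ+zVAD, the members' median with IFNβ moved from -0.28 to -0.06, and the small-subunit calls for Mrps23, Mrps33 and, in IFNβ+zVAD, Mrps26 were lost. Without WT untreated replicate 2 the count for IFNβ went from 31 to 19.

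Treatment with zVAD alone gave 0 calls among the members in WT BMDMs by limma, with 4 at an unadjusted p under 0.05, and 0.00624% of all genes, a single gene, was called higher. The median changes were 0.06 and 0.06, with single changes between -0.41 and 0.66. In Ifnar1-/- BMDMs zVAD, IFNβ and IFNβ+zVAD likewise gave 0 calls, with 0, 2 and 3 members at an unadjusted p under 0.05, and only IFNβ+zVAD called a gene of the whole series, lower (0.00624%). Mrpl39, for example, had 11.85 and 12.02 in untreated Ifnar1-/- BMDMs, 12.15 and 11.98 with IFNβ and 12.31 and 12.20 with IFNβ+zVAD. Its changes there, 0.13 and 0.32, each have an SE of 0.26.

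**Figure D4:**
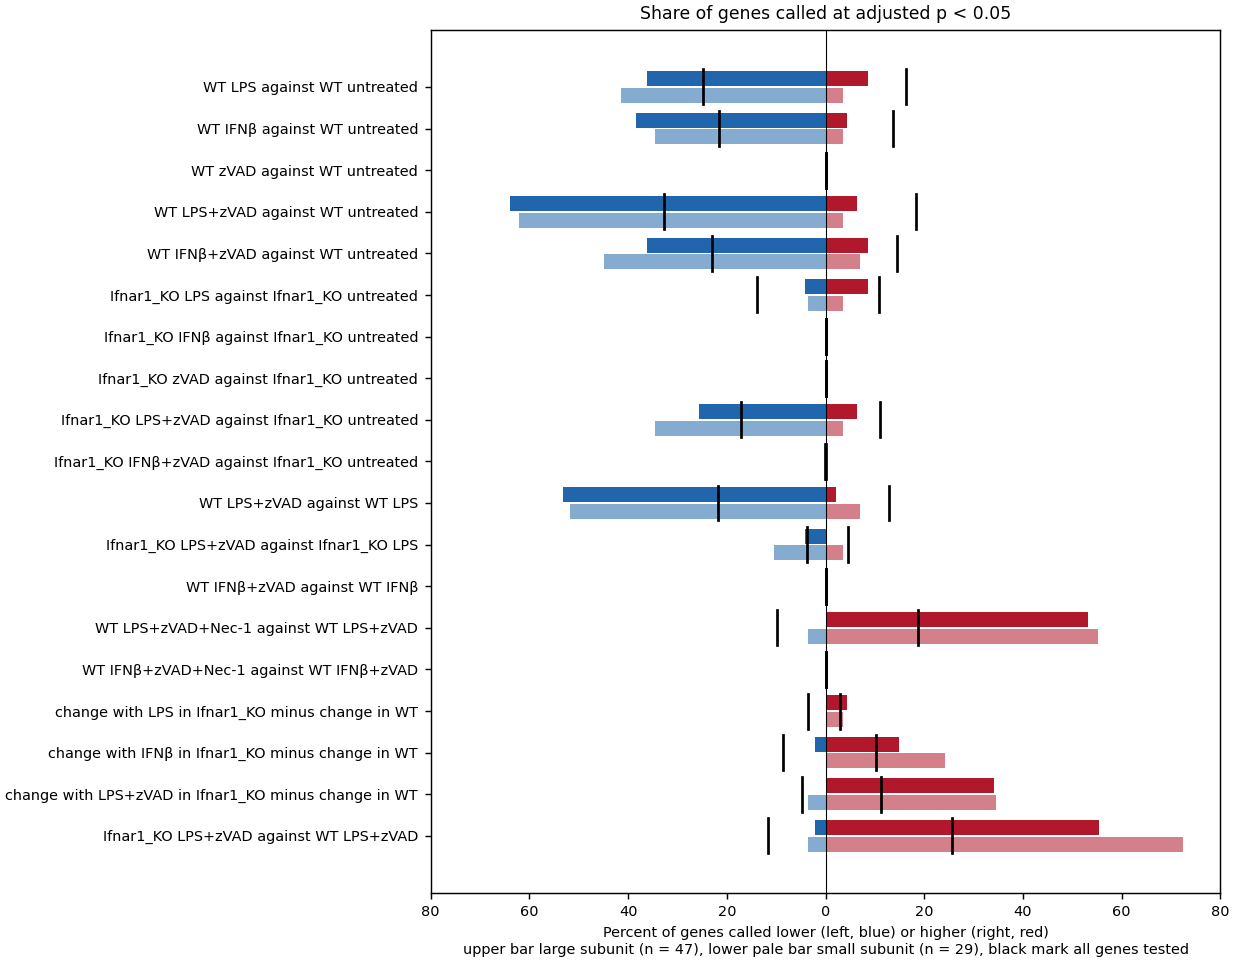
Percent (x axis) of the large-subunit (upper bar, n = 47) and small-subunit genes (lower pale bar, n = 29) called lower (left) or higher (right) in each comparison (y axis), with a black mark for all genes tested. In WT LPS+zVAD 63.8% and 62.1% were lower against 32.7% of all genes, and the bars turn to the right for Nec-1 and for the genotype comparisons.

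The next comparisons ask what zVAD and then Nec-1 added to LPS. WT LPS+zVAD was lower than WT LPS in 25 large-subunit and 15 small-subunit members and higher in 1 and 2, where 21.7% of all genes were lower and 12.9% higher. The median changes were -0.53 and -0.48 against -0.04 for all genes, and 36 of 47 and 23 of 29 members were lower on both slides. Mrpl44 had 11.66 and 11.91 in LPS and fell by 1.69 on the log2 scale (SE 0.14, adjusted p = 7.27e-08), Mrpl40 by 1.41 (adjusted p = 6.54e-05), Mrps18c by 1.30 (adjusted p = 7.84e-06) and Mrps5 by 1.36 (adjusted p = 3.25e-05). Mrps18c, which had been higher with IFNβ, had 13.68 and 14.04 in LPS and 12.77 and 12.34 in LPS+zVAD. Mrps6 was higher by 2.37 (SE 0.20, adjusted p = 1.67e-07), Mrpl9, a protein with a bacterial homologue, by 0.70 (adjusted p = 0.00353) and Mrps36 by 0.52 (adjusted p = 0.0232).

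The count of 43 members called went to 23 without WT LPS replicate 2 and to 27 without WT LPS+zVAD replicate 2, and the median over all members was -0.34 within the first and -0.67 within the second slide. Mrpl9 was not called without WT LPS+zVAD replicate 2, nor Mrps36 without that array or either WT LPS array, and neither was called with the mean of its probes.

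Nec-1 shifted most of these genes the other way. Relative to WT LPS+zVAD, WT LPS+zVAD+Nec-1 was higher in 25 large-subunit and 16 small-subunit members and lower in 1 small-subunit gene, where 18.7% of all genes were higher and 9.78% lower. The median was 0.55 in each subunit against 0.02 for all genes, and 36 of 47 and 24 of 29 members were higher on both slides. Mrpl44 had 11.67 and 11.76 with Nec-1 (1.62, SE 0.14, adjusted p = 2.42e-07), and Mrpl40 rose by 1.51 (adjusted p = 5.31e-05), Mrps18c by 1.43 (adjusted p = 5.46e-06) and Mrps5 by 1.44 (adjusted p = 2.98e-05). Mrps6 was the gene that fell, from 14.44 and 14.46 to 13.01 and 13.10 (-1.40, SE 0.20, adjusted p = 6.02e-05). The Nec-1 and the zVAD comparison share the WT LPS+zVAD arrays, so an error of that pair would enter both with opposite sign. A fit on the 4 compared arrays alone, which leaves few degrees of freedom, called 0 members for Nec-1 and 4 for zVAD.

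Nec-1 added to IFNβ+zVAD gave 0 calls among the members by limma, with 8 at an unadjusted p under 0.05, and 0 among all 16036 genes tested (0%). The medians were 0.19 in the large and 0.23 in the small subunit against 0.05 for all genes, and 40 of 47 and 24 of 29 members were higher on both slides. Without the share of all genes, neither count is read as particular to the members.

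In Ifnar1-/- BMDMs fewer members were called with LPS or LPS+zVAD than in WT BMDMs, and the difference itself is tested further below. LPS gave 3 lower and 5 higher members relative to untreated Ifnar1-/- BMDMs (2 and 4 of the large, 1 and 1 of the small subunit), where 13.9% of all genes were lower and 10.9% higher. The higher genes included Mrpl52 (1.54, SE 0.32, adjusted p = 0.00185), with 14.45 and 14.59 in untreated cells and 16.06 and 16.06 in LPS, Mrps18b (0.97, adjusted p = 0.000870) and Mrpl54 (0.64, adjusted p = 0.0187). The lower genes were Mrps35 (-0.65, adjusted p = 0.0166), Mrpl42 (-0.76, adjusted p = 0.0317) and Mrpl30 (-0.49, adjusted p = 0.0344). With the slides as a block 23 members were called, with the 75th-percentile shift 0 were lower and 8 higher, and leaving out any 1 of the 4 arrays left 2 to 5. The calls for Mrps35, Mrpl42 and Mrpl30 held among these only without LPS replicate 2, and that for Mrpl54 was lost without any 1 array.

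LPS+zVAD gave 12 large-subunit and 10 small-subunit members lower and 3 and 1 higher than in untreated Ifnar1-/- BMDMs, where 17.2% of all genes were lower and 11% higher. The medians were -0.24 and -0.29 against -0.09 for all genes. Mrps35 (-1.04, SE 0.19, adjusted p = 0.000552) went from 11.21 and 11.25 to 10.10 and 10.29, and Mrps26 (-0.91, adjusted p = 0.000703), Mrpl44 (-0.67, adjusted p = 0.00122) and Mrpl42 (-1.08, adjusted p = 0.00312) were also lower. Mrps6 (0.80, adjusted p = 0.00680), the membrane anchor Mrpl45 (0.75, adjusted p = 0.0109), Mrpl52 (0.996, adjusted p = 0.0269) and Mrpl32 (0.42, adjusted p = 0.0332) were higher. Leaving out any 1 of the 4 arrays lowered the count from 26 to between 8 and 14, and ended the calls for Mrpl45, Mrpl52 and Mrpl32, while that for Mrps6 was lost without untreated replicate 1 or LPS+zVAD replicate 2. The 75th-percentile shift left 2 lower and 3 higher, without the calls for Mrps26, Mrpl44 and Mrpl32.

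Against LPS alone, LPS+zVAD in Ifnar1-/- BMDMs was lower in 5 members (2 large, 3 small) and higher in 1, where 3.67% of all genes were lower and 4.58% higher. Mrpl44 (-0.60, adjusted p = 0.00903), Mrpl16 (-0.52, adjusted p = 0.0269), Mrps16 (-0.60, adjusted p = 0.0141) and Mrps18c (-0.63, adjusted p = 0.0211) were lower and Mrps6 (0.99, adjusted p = 0.00496) was higher. The members' median was -0.28 against -0.06 for all genes, and 36 of 47 and 22 of 29 were lower on both slides. The count rose to 15 with the slides as a block, and fell to 1 with the 75th-percentile shift and without any 1 of the 4 arrays.

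The difference between genotypes was tested as the change in Ifnar1-/- minus the change in WT BMDMs, in which differences between slides cancel. For LPS+zVAD this difference was positive, that is a smaller fall or a larger rise in Ifnar1-/- BMDMs, for 16 large-subunit and 10 small-subunit members, and negative for 1, where 11.3% of all genes were positive and 4.78% negative. The medians were 0.56 and 0.57 against 0.09 for all genes. Mrpl44 fell by 1.98 in WT and by 0.67 in Ifnar1-/- BMDMs, a difference of 1.30 (SE 0.19, adjusted p = 0.000176). Mrpl41 had 13.02 and 13.18 in untreated and 13.16 and 13.24 in LPS+zVAD-treated Ifnar1-/- BMDMs, against 13.41 and 13.04 and then 11.73 and 11.71 in WT, a difference of 1.60 (SE 0.30, adjusted p = 0.00136). With the mean of all Mrpl41 probes it was 1.01 and not called (adjusted p = 0.0820). In the small subunit Mrps31 (1.13, SE 0.23, adjusted p = 0.00273) and Mrps17 (0.95, SE 0.24, adjusted p = 0.00953) differed, with changes of -1.62 and -1.22 in WT and of -0.49 and -0.27 in Ifnar1-/- BMDMs. The negative difference was that of Mrps6, -1.29 (SE 0.29, adjusted p = 0.00481).

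The count of 27 was 13 and 15 without WT untreated replicate 1 or 2, 12 without Ifnar1-/- untreated replicate 1, 17 without WT LPS+zVAD replicate 2 and 8 without Ifnar1-/- LPS+zVAD replicate 2. With the 75th-percentile shift 11 were positive and 1 negative, and Mrps17 lost its call there and without Ifnar1-/- untreated replicate 1 or LPS+zVAD replicate 2.

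**Figure D5:**
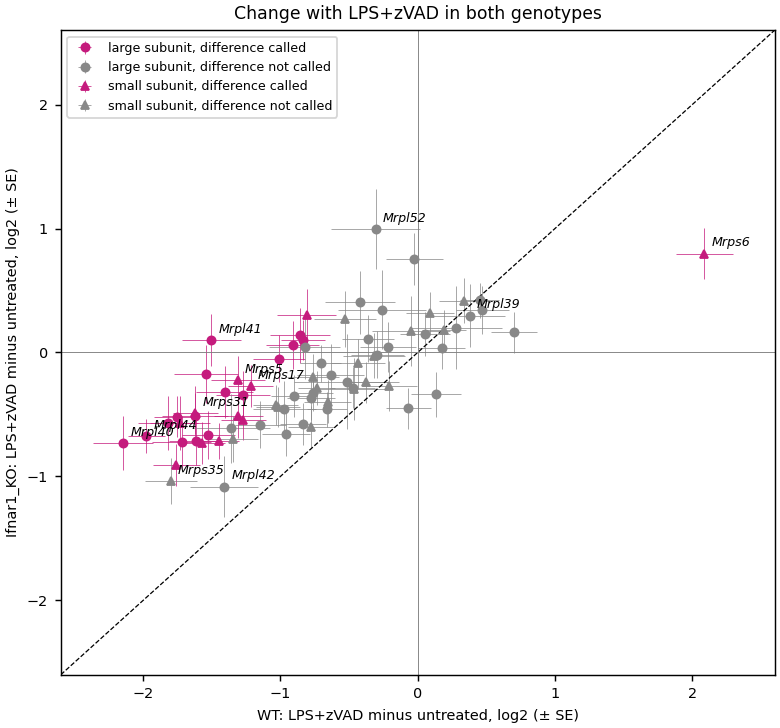
Log2 change with LPS+zVAD in WT (x axis) and in Ifnar1_KO BMDMs (y axis), each against its own untreated group, with bars of 1 SE, circles for large-subunit and triangles for small-subunit genes. Genes above the dashed line of equal change fell less or rose more in Ifnar1_KO, and the coloured genes are the 27 whose difference was called, with Mrps6 the only one of them below the line.

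For IFNβ the difference was positive for 7 members of each subunit and negative for 1 of the large subunit, where 10.3% of all genes were positive and 8.54% negative. Mrpl41 (1.62, SE 0.30, adjusted p = 0.000948), Mrpl34 (1.07, adjusted p = 0.00390), Mrps21 (0.92, adjusted p = 0.00814) and Mrps26 (0.95, adjusted p = 0.00908) had fallen in WT and had changes in Ifnar1-/- BMDMs of 0.12, 0.04, 0.29 and 0.12 that were not called. Mrpl39 had the negative difference, -1.48 (SE 0.36, adjusted p = 0.00786). With the slides as a block 28 members were called. The 75th-percentile shift left 2 negative and 1 positive and ended the calls for Mrpl34, Mrps21 and Mrps26. With the mean of their probes Mrpl41 (1.01, adjusted p = 0.0735) and Mrps26 were not called. The count of 15 was 9 without Ifnar1-/- untreated replicate 1 and 8 without Ifnar1-/- IFNβ replicate 2.

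For LPS alone 3 members had a positive difference (2 large, 1 small), where 3.03% of all genes were positive and 3.6% negative. They were Mrpl41 (1.27, SE 0.30, adjusted p = 0.0145), Mrpl34 (0.83, adjusted p = 0.0415) and Mrps16 (0.84, adjusted p = 0.0169), the last with 13.74 and 13.79 in Ifnar1-/- LPS against 12.53 and 12.98 in WT LPS. With the mean of all its probes Mrpl41 was not called (0.81, adjusted p = 0.254), and Mrpl34 and Mrps16 were not called with the 75th-percentile shift, with normexp or in the authors' normalized values. The block raised the count to 12. It was 0 to 9 when 1 of the 8 arrays was left out, with 0 without WT untreated replicate 1, WT LPS replicate 1 or Ifnar1-/- LPS replicate 2 and 9 without WT LPS replicate 2, and each of the 3 genes lost its call without at least 4 of the single arrays.

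In LPS+zVAD itself, 26 large-subunit and 21 small-subunit members were higher and 1 and 1 lower in Ifnar1-/- than in WT BMDMs, where 25.7% of all genes were higher and 11.7% lower. The medians were 0.69 and 0.65 against 0.13 for all genes. Mrps5 had 10.07 and 10.33 in Ifnar1-/- against 8.35 and 8.28 in WT (1.89, SE 0.20, adjusted p = 7.20e-07), and Mrps16 13.16 and 13.17 against 12.38 and 12.17 (0.90, adjusted p = 8.77e-05). Mrpl12 (1.38, adjusted p = 3.07e-06) and Mrpl44 (1.19, adjusted p = 2.21e-06) were higher as well. Mrps6 was lower (-1.05, adjusted p = 0.000477), as was Mrpl22 (-0.55, adjusted p = 0.0222), whose second probe gave 0.96 and whose call was lost without any 1 of the 4 arrays. The genotypes lie on different slides, so genotype and slide cannot be told apart here. For Mrps5 and Mrpl12 the untreated genotypes were also apart, with 10.37 and 10.47 in Ifnar1-/- against 9.58 and 9.66 in WT, and 13.64 and 13.68 against 13.26 and 13.18.

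The other genes of mitochondrial translation moved in the same comparison. In WT LPS+zVAD, where 32.7% of all genes were lower and 18.3% higher, 6 of 7 further ribosomal proteins without an Mrpl or Mrps name were lower (median -1.02), among them Ptcd3 (-1.61) and Ict1 (-1.38), the peptidyl-tRNA hydrolase of the large subunit. Of 15 translation factors 13 were lower (median -1.05), with Mtfmt, which formylates the initiator methionyl-tRNA, at -1.94 and the release factor Mtrf1 at -3.01. Of 28 genes for ribosome assembly and rRNA modification 21 were lower and 2 higher (median -1.36), with the GTPase gene Mtg1 at -2.65 and Ngrn at -3.08. The 2 higher genes were Afg3l2, which encodes a subunit of the m-AAA protease (1.24, adjusted p = 0.000397), and Mterfd1 (0.98, adjusted p = 0.0170). These lists were thus mostly lower, with medians below that of the members.

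Of 16 mitochondrial aminoacyl-tRNA synthetases 13 were lower (median -1.81), with Pars2 at -4.27. Of 9 genes for the transcription and maintenance of mitochondrial DNA 8 were lower (median -1.63), with the RNA polymerase gene Polrmt at -2.37 and the DNA polymerase gene Polg at -1.63. Of 9 regulators of mitochondrial biogenesis 0 were lower and 2 higher, Gabpb1 (1.63, adjusted p = 1.14e-05), a subunit of GABP, and Myc (2.53, adjusted p = 0.000146), where 18.3% of all genes were higher. Among the members with a window, 16 of the 24 with the ETS motif were lower (median -0.87), as were 27 of the 43 without it (median -0.81). Of the 7 with the NRF1 motif 2 were lower and 1 higher (median 0.17).

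Proteins of the cytosolic ribosome differed from these lists. In WT LPS+zVAD 10 of 82 were lower (median -0.22), where 32.7% of all genes were lower. In WT LPS 36 of 82 were lower and 1 higher (median -0.39), where 24.8% and 16.3% of all genes were. The direction of this list depended on the scaling, since with the 75th-percentile shift 0 were lower and 38 higher in LPS+zVAD (median 0.65). For the lists of mitochondrial translation the median stayed below 0 in LPS+zVAD under the scalings tried, between -0.56 and -1.06 for the 7 further ribosomal proteins, with 3 called lower under the 75th-percentile shift.

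Probes of one gene did not always run together. In WT LPS+zVAD 4 of the 26 members with more than 1 probe past the filter had probes with changes of opposite sign, which were Mrpl22 (0.14 and -0.86), Mrpl30 (-0.07 and 0.11), Mrpl39 (0.38 and -1.44) and Mrps7 (0.09 and -0.30). None of these brightest probes was called there. In WT LPS and WT IFNβ 6 members each had probes of opposite sign.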

How the data were processed

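RNA of the 32 BMDM samples was measured on 1-colour Agilent mouse arrays, whose 55681 probes include 33140 with a gene symbol. The intensities deposited by the authors are Feature Extraction (11.5.1.1) processed signals, with the local background subtracted and trends within the array corrected. The authors also deposited a normalized table of log2 values, used here only as an alternative; each of its 32 columns correlated best with its own array (lowest 0.989). The scanner flags the authors deposited mark outlier spots, which were left out (so Mrps22 has no value on 1 array), and probes well above background. The submitters' processing notes name limma.

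Here log2 processed intensities were quantile-normalized. Probes well above background on at least 50% of the arrays were retained, and the brightest probe stood for a gene. Groups were compared with limma (3.58.1, R 4.3.3) in a single linear model over all 32 arrays (16 residual degrees of freedom), with Benjamini-Hochberg adjustment over 16037 genes and a threshold of 0.05. The script was tested on simulated data. The number of arrays limits the precision. Columns of other samples numbered 0. The members, the gene lists and the tests were chosen with earlier results of these data known.

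Each of the 4 slides holds the 8 treatments of 1 genotype and 1 replicate number. Within a slide, position and treatment cannot be told apart, and whether a treatment kept its position across slides is not given here. The replicate numbers thus pair the samples by slide. Differences between replicates 1 and 2 correlated between the treatments of a slide pair by 0.319 to 0.670 in WT (median 0.486). In Ifnar1-/- they correlated by 0.170 to 0.575 (median 0.439), with 28 of 28 pairs above 0.1 in each genotype. Between genotypes, which share no slide, the range was 0.000909 to 0.328 (median 0.156). There 56 of 64 pairs were above 0.1 too, so that cut does not separate paired from unpaired samples.

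Genes given array by array were the 4 of each subunit with the widest range of group means and the 1 with the narrowest. In each comparison the 2 of each subunit with the lowest adjusted p in the main direction were named, and all called the other way up to 5, or else the 2 with the lowest adjusted p of each subunit. Alternatives were a 75th-percentile shift, normexp background correction with an offset of 50, no filter, the slide as a block, the compared arrays alone, the mean of all probes, limma's trend and robust options, the authors' values and leaving out arrays. Promoters came from RefSeq (GRCm38.p6), and genome-wide annotation of the mm9 probes was not used here. Some genes of the marker and pathway lists are not reported here by name.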

Additional observations from a re-analysis of the deposited data

Results flagged for a closer look

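The changes with treatment that differed between the genotypes by the test of the difference itself (Ifnar1-/- minus WT, limma) are collected here. They number 3 members for LPS, 15 for IFNβ and 27 for LPS+zVAD. Of all genes 3.03%, 10.3% and 11.3% were positive and 3.6%, 8.54% and 4.78% negative, so the share of members for LPS was near that of all genes, and that count went to 0 without WT untreated replicate 1, WT LPS replicate 1 or Ifnar1-/- LPS replicate 2. For LPS these were Mrpl41 (1.27), Mrpl34 (0.83) and Mrps16 (0.84). For IFNβ the named genes were Mrpl41 (1.62), Mrpl34 (1.07), Mrps21 (0.92), Mrps26 (0.95) and, with the opposite sign, Mrpl39 (-1.48). For LPS+zVAD they were Mrpl44 (1.30), Mrpl41 (1.60), Mrps31 (1.13), Mrps17 (0.95) and, with the opposite sign, Mrps6 (-1.29). Mrpl41 appears in each of the 3 comparisons, which share the untreated arrays, and with the mean of all its probes it was not called in any of them.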

How the results depend on the processing

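Counts of called members that moved by over 1.5 times are given first by setting, without the share of all genes called in that setting. With the 75th-percentile shift they were 20 (WT LPS), 15 (WT IFNβ), 18 (WT IFNβ+zVAD), 5 (Ifnar1-/- LPS+zVAD), 1 (zVAD added to LPS in Ifnar1-/-), and 1, 3 and 12 for the genotype differences with LPS, IFNβ and LPS+zVAD. The numbers pair the samples by slide, and with the replicate block the counts were 23 (Ifnar1-/- LPS), 15 (zVAD added to LPS in Ifnar1-/-), 12 (LPS difference) and 28 (IFNβ difference), with no other count moved by over 1.5 times. In fits on the compared arrays alone, which have few degrees of freedom, they were 12 (WT LPS), 15 (WT IFNβ), 9 (WT IFNβ+zVAD), 5 (Ifnar1-/- LPS), 17 (Ifnar1-/- LPS+zVAD), 4 and 1 (zVAD added to LPS in WT and Ifnar1-/-), 0 (Nec-1 on LPS+zVAD), 0 and 12 (LPS and LPS+zVAD differences) and 18 (Ifnar1-/- against WT in LPS+zVAD). Normexp gave 1 and the authors' values 1 for the LPS difference, and the authors' values 17 for LPS+zVAD. No filter gave 4 for Ifnar1-/- LPS, trend and robust options gave 15 there and 6 for the LPS difference, and leaving out the Ifnar1-/- LPS+zVAD+Nec-1 pair gave 10 for zVAD added to LPS in Ifnar1-/-. Without 1 array at a time the ranges were 19 to 30 (WT LPS), 19 to 23 (WT IFNβ), 47 to 50 (WT LPS+zVAD), 24 to 33 (WT IFNβ+zVAD), 2 to 5 (Ifnar1-/- LPS), 8 to 14 (Ifnar1-/- LPS+zVAD), 23 to 43 (zVAD added to LPS in WT), 1 to 1 (in Ifnar1-/-), 29 to 35 (Nec-1 on LPS+zVAD), 0 to 9, 8 to 15 and 8 to 27 (LPS, IFNβ and LPS+zVAD differences) and 34 to 45 (Ifnar1-/- against WT). With the slide as a random block (correlation 0.394) the last count was 49. Comparisons with 0 calls kept 0 under these settings. The change of Mrpl22 between genotypes in LPS+zVAD reversed from -0.55 to 0.21 (adjusted p = 0.295) with the mean of its probes. Of 82 named calls 81 kept their sign in each setting, 52 stayed called without any 1 array, 61 with the 75th-percentile shift and 38 under all other settings. The causes were not tested.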
